A study of Mus musculus with 6 samples.

Results

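The RNA of 10 digestive enzymes of the pancreatic acinar cell was measured in isolated mouse islets. The genes were *Prss2*, *Try4* and *Try5*, which encode trypsinogens, *Ctrb1*, which encodes chymotrypsinogen B, *Cela1*, *Cela2a* and *Cela3b*, which encode elastases, *Cpa1* and *Cpb1*, which encode the carboxypeptidases A1 and B1, and *Pnlip*, which encodes pancreatic lipase. They were chosen by name from the 55060 genes of the deposited expression table, and all 10 were found. RNA-seq was done on 3 islet samples of Ctrl and 3 of cKO mice, 12 weeks old, to compare gene expression between the genotypes. The cKO mice were *Ins2*-cre; *Parn* f/f, in which the Cre recombinase is expressed from the *Ins2* promoter, active in β cells, and removes exon 7 of *Parn*, the gene of a poly(A)-specific ribonuclease. The Ctrl group was made up of littermates, *Parn* f/f animals among them, and which of these genotypes each Ctrl sample had is not given in the sources used here. Islets were freed with collagenase P and picked by hand, so that cells of the surrounding exocrine tissue can be carried along.

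Acinar cells make up most of the pancreas and secrete the enzymes that digest protein, fat and starch in the gut. The proteases are stored in zymogen granules as inactive precursors. In the duodenum, enteropeptidase cleaves a short activation peptide from trypsinogen, and trypsin then activates the other zymogens. The transcription of these genes in acinar cells depends on PTF1, a complex of PTF1A, an E-box binding partner and RBPJL, which recognises an E-box (CACCTG) followed by a TC-box (TTTCCC). Exocrine RNA is a common admixture in isolated islets.

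The 3 trypsinogens are shown by the coding stretch around their activation site, since it is both the feature that defines them and an example of how alike these genes are. The 60 bases are spliced from exons 1 and 2 and run from 5′ to 3′ on the coding strand. Capitals mark codons 19 to 23, which encode the aspartates and the lysine after which enteropeptidase cleaves.
*Prss2*, chr6:41521843-41522875, plus strand: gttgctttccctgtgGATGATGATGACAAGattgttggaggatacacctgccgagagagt
*Try4*, chr6:41302324-41303342, plus strand: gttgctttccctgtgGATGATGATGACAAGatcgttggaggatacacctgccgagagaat
*Try5*, chr6:41313450-41314656, minus strand: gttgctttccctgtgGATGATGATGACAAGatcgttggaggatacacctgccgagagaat
*Try4* and *Try5* were identical over all 60 bases, and *Prss2* matched each of them at 58. The stretches were read from GENCODE transcripts of GRCm38, the build of the deposited coordinates. Over their whole transcripts, 65.6% of the 50-base words of *Try4* and 53.9% of those of *Try5* occurred in at least 1 other gene, with 45.9% shared between them. For *Prss2* the share was 7.83%. Of the elastases, *Cela3b* shared 33.2% of its words with *Cela3a*, and *Cela2a* shared 25.6% with *Ctrc*, a chymotrypsinogen gene whose annotated span includes that of *Cela2a*. No word of *Cela1*, *Cpa1*, *Cpb1*, *Pnlip* or *Ctrb1* was shared. How the counting treated reads that match several genes is not given in the sources used here, so the split of reads between *Try4* and *Try5*, between *Cela3b* and *Cela3a*, and between *Cela2a* and *Ctrc* is uncertain.

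Because the enzymes are set against each other across samples below, the bases just upstream of their starts were searched for the 2 PTF1 motifs. The sequences are from RefSeq on GRCm38.p6, which held 9 of the 10 promoters, *Try5* being the exception. Shown are the 200 bases before the start of 4 genes: *Cela1*, which held the pair of motifs in order, *Ctrb1*, the enzyme with the highest level, and the trypsinogens *Prss2* and *Try4*. They are written 5′ to 3′ on the strand of the gene, and capitals mark CACCTG or TTTCCC on either strand, so that CAGGTG and GGGAAA are the same motifs on the other strand.
*Cela1*, chr15:100687921-100688120, minus strand: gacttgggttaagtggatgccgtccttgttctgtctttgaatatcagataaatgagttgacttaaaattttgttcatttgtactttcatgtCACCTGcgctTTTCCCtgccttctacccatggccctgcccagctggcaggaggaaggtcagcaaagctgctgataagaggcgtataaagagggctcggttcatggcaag
*Ctrb1*, chr8:111691011-111691210, minus strand: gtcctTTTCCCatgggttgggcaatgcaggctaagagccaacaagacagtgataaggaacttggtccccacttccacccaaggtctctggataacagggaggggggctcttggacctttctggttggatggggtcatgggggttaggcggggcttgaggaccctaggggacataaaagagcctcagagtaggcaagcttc
*Prss2*, chr6:41521576-41521775, plus strand: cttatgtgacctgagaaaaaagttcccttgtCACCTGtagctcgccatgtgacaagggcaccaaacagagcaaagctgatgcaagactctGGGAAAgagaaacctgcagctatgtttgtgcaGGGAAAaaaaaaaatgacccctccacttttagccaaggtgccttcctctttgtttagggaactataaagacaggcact
*Try4*, chr6:41302072-41302271, plus strand: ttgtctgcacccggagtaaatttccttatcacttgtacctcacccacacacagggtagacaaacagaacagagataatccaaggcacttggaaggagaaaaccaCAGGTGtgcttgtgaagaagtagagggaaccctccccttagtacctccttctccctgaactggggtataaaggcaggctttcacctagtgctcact
In windows of 300 bases, 250 before and 50 after the start, CACCTG was found on either strand in 6 of 9 enzyme promoters, *Cela1*, *Cela2a*, *Cela3b*, *Cpb1*, *Prss2* and *Try4*, against 20.2% of all 32851 promoters. TTTCCC was found in 5 of 9, *Cela1*, *Cela2a*, *Cpa1*, *Ctrb1* and *Prss2*, against 25.2% of all. CACCTG followed by TTTCCC on the same strand, with 2 to 20 bases between them, was found in *Cela1* alone, at -109 and -99 from the start, against 0.237% of all promoters; this distance was set after a first look at the sequences. A TATA box (TATAAA) on the gene's strand in the last 50 bases before the start was found in *Cela1*, *Pnlip*, *Prss2* and *Try4*, against 2.63% of all promoters. Of 20 other acinar product genes, from a list described below, 9 held CACCTG, 5 TTTCCC, 1 the ordered pair and 5 the TATA box. Only exact matches were sought. A match is a stretch of letters and was not tested as a binding site.

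The total number of reads on genes was 16289408 to 17944775 per sample, and 22790 to 23792 genes were above 0. The table gives FPKM, fragments scaled by the length of the gene and by a size for each sample. A single read on a gene 1 kilobase long was worth 0.0553 to 0.0636 FPKM. That size was not the total of reads: in Ctrl replicate 2 it was 15731223, below the 16470783 reads on genes. The median ratio of a gene to its geometric mean over the samples was 1.00368 in every sample, so the deposited values were already level by that measure. Each enzyme had 8185 to 215694 reads in each sample, so that counting error is small beside the differences between samples. As a check of the labels, *Parn* was at 6.64, 8.34 and 7.38 FPKM in Ctrl replicates 1, 2 and 3 and at 4.97, 4.61 and 6.15 in cKO replicates 1, 2 and 3, lower in all 3 cKO samples but not past the test (log2 fold change -0.44, SE 0.131, limma adjusted p = 0.545). The samples were islets by their leading gene, with *Ins2* taking 14.7% to 22.7% of the reads on genes. Ctrl replicate 1 stood apart by 8 leukocyte markers, whose summed level was 613 FPKM there and 35.4 to 76.5 FPKM in the other 5 samples.

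Acinar RNA was present in every islet sample, at levels that differed between samples of the same genotype more than between the genotypes. The summed level of the 10 enzymes was 19708, 25107 and 9674 FPKM in Ctrl replicates 1, 2 and 3 and 43792, 11537 and 36049 FPKM in cKO replicates 1, 2 and 3. Ctrl islets had a mean of 18163 ± 7831 (SD, n = 3) and cKO islets one of 30459 ± 16839 (SD, n = 3), a ratio of 1.68, whereas the highest sample was 4.53-fold above the lowest. cKO replicates 1 and 3 were above all Ctrl samples, and cKO replicate 2 lay below Ctrl replicates 1 and 2, so the genotypes overlapped. In reads, the 10 genes took 2.25%, 2.84% and 1.11% of those on genes in Ctrl islets, and their shares in cKO islets were 5.30%, 1.46% and 4.25%. The 95% Wilson intervals of these shares extended by at most 0.0106 percentage points to either side and cover counting error only. With 28 further acinar products, these shares were 3.07%, 3.94% and 1.54% and 7.20%, 2.03% and 5.95%. In RNA of whole islet samples, fewer acinar cells and less enzyme RNA per acinar cell cannot be told apart.

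**Figure D1:**
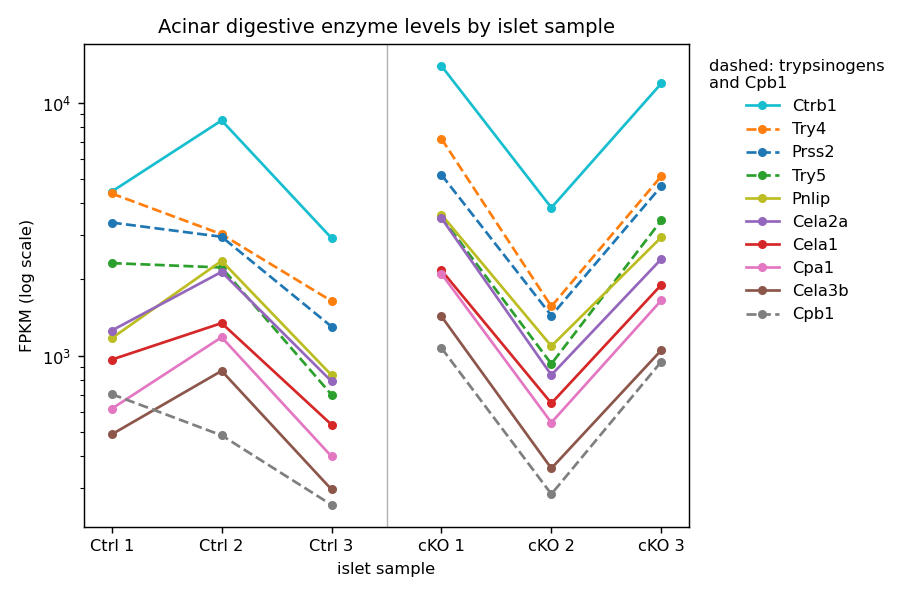
Level of each of the 10 enzymes, in FPKM on a log axis, in the 3 Ctrl and 3 cKO islet samples; each point is 1 sample, each color 1 gene, the lines only link the points of a gene within a genotype, and dashed lines are the trypsinogens and *Cpb1*. All 10 enzymes were highest in cKO replicate 1 and second in cKO replicate 3, and 9 of 10 were lowest in Ctrl replicate 3.

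Chymotrypsinogen B, a protease that cuts after aromatic residues once activated, had the highest RNA level per length of the 10 in every sample. *Ctrb1* (ENSMUSG00000031957, chr8:111686519-111691010) was at 4453, 8514 and 2915 FPKM in the Ctrl islets and at 13984, 3845 and 11924 FPKM in those of cKO mice. Both the highest and the second highest level were in cKO islets, but cKO replicate 2 was below Ctrl replicates 1 and 2. The log2 fold change, cKO against Ctrl on log2(FPKM + 1), was 0.85 (SE 0.703, 95% confidence interval -0.84 to 2.53, limma adjusted p = 0.820).

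The 3 trypsinogens lie in 1 cluster on chromosome 6. *Try4* (ENSMUSG00000054106, chr6:41302269-41305532) was at 4377, 3019.5 and 1644 FPKM in the Ctrl and at 7203, 1565 and 5124 FPKM in the cKO samples. *Prss2* (ENSMUSG00000057163, chr6:41521787-41525079) was at 3359, 2951 and 1302 FPKM and at 5189, 1439 and 4675 FPKM. *Try5* (ENSMUSG00000036938, chr6:41311233-41316841) was at 2321, 2231 and 700.3 FPKM and at 3529.7, 928 and 3424 FPKM. All 3 were higher in Ctrl replicate 1 than in Ctrl replicate 2, and *Try4* was the only enzyme with its lowest level in cKO replicate 2. In Ctrl replicate 1, *Try4* was at nearly the level of *Ctrb1*, which was far above it in the other samples. The log2 fold changes were 0.47 for *Try4* (SE 0.673), 0.48 for *Prss2* (SE 0.626) and 0.54 for *Try5* (SE 0.698), with limma adjusted p of 0.902, 0.894 and 0.892.

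The elastases are among the proteases that acinar cells store as inactive precursors. *Cela2a* (ENSMUSG00000058579, chr4:141814962-141826160) was at 1256, 2143 and 791 FPKM in the Ctrl and at 3496, 838 and 2409 FPKM in the cKO samples. *Cela1* (ENSMUSG00000023031, chr15:100674421-100687921) was at 964, 1344 and 533 FPKM and at 2173, 648 and 1905 FPKM. *Cela3b* (ENSMUSG00000023433, chr4:137420999-137430540) was at 488, 870.1 and 295 FPKM and at 1429, 358 and 1051 FPKM. The 3 genes ordered the 6 samples alike, with cKO replicates 1 and 3 first, Ctrl replicates 2 and 1 next, and cKO replicate 2 and Ctrl replicate 3 last. Their log2 fold changes were 0.58 (*Cela2a*, SE 0.613), 0.65 (*Cela1*, SE 0.554) and 0.70 (*Cela3b*, SE 0.605), with limma adjusted p of 0.860, 0.820 and 0.821.

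The carboxypeptidases remove residues from the end of peptides, A1 aromatic and aliphatic ones and B1 the basic ones that trypsin leaves. *Cpa1* (ENSMUSG00000054446, chr6:30639218-30645363) was at 616, 1182 and 399 FPKM in the Ctrl and at 2105, 543 and 1654 FPKM in the cKO samples. *Cpb1* (ENSMUSG00000011463, chr3:20248264-20275733) was at 704, 484 and 257 FPKM and at 1072, 283 and 946 FPKM. *Cpb1* was above *Cpa1* in Ctrl replicate 1 alone and below it in the other 5 samples. Pancreatic lipase, which splits dietary triglycerides together with colipase, was encoded by *Pnlip* (ENSMUSG00000046008, chr19:58670365-58681786) at 1171, 2369 and 837 FPKM in the Ctrl and 3611, 1090.2 and 2937 FPKM in the cKO samples. The log2 fold changes were 0.90 for *Cpa1* (SE 0.609), 0.57 for *Cpb1* (SE 0.595) and 0.77 for *Pnlip* (SE 0.578), with limma adjusted p of 0.820, 0.856 and 0.820.

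Between the genotypes, no enzyme passed the test. All 10 had a higher mean in cKO islets, with log2 fold changes of 0.47 to 0.90 and a median of 0.61, against a median of -0.01 over the 21211 genes tested, but none of the 10 was without overlap between the 3 Ctrl and the 3 cKO samples, where 13.1% of all genes tested were. None had an adjusted p under 0.05 in limma, where 0% of all genes tested did, and none had an unadjusted p under 0.05 with a higher level in cKO islets, where 4.33% did. Every 95% confidence interval included 0 and extended to 1.98 or more on the log2 scale, so both equal levels and a rise of that size lay within the intervals. Over all genes, limma called 0 genes at an adjusted p under 0.05 and 1570 at an unadjusted one; limma voom on the reads read back from the FPKM called 0 and 1579. In all 10 enzymes, cKO replicates 1 and 3 held the 2 highest levels and cKO replicate 2 one of the 2 lowest. Without cKO replicate 2, *Pnlip*, *Cela1*, *Cpa1*, *Cela3b* and *Cpb1* had an unadjusted p under 0.05, with log2 fold changes of 1.18 to 1.49, where 3.5% of the 21262 genes in that fit had one with a higher level in cKO islets, and none passed after adjustment. Without Ctrl replicate 3 the mean log2 difference of the 10 was 0.26, in place of 0.65, and without cKO replicate 1 it was 0.28.

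**Figure D2:**
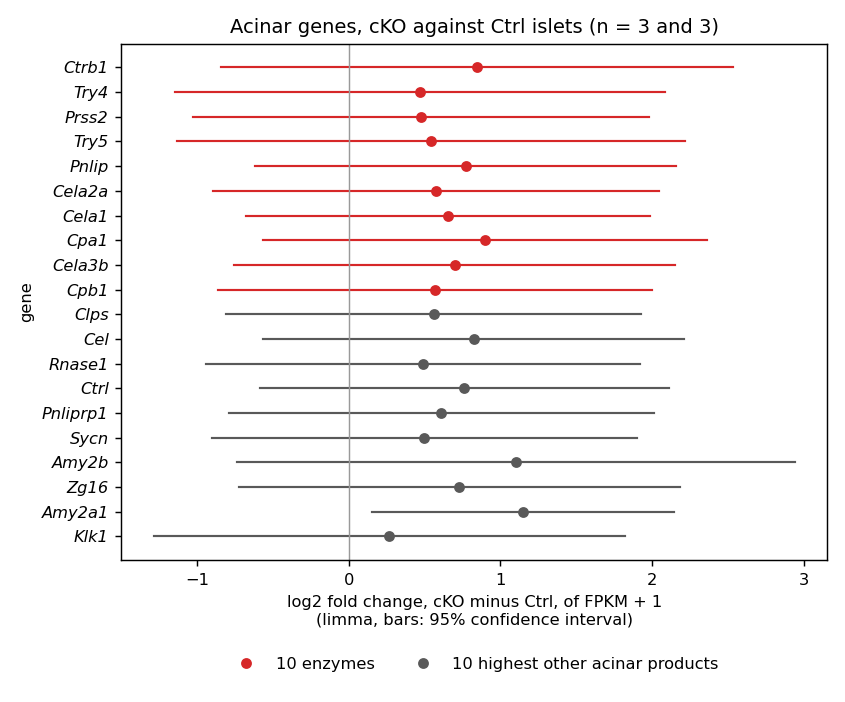
Log2 fold change of FPKM + 1, cKO minus Ctrl islets (3 samples each), for the 10 enzymes in red and the 10 highest of the other acinar products in gray; points are limma estimates and bars their 95% confidence intervals. The intervals of all 10 enzymes cross 0, and among the other products that of *Amy2a1* does not; the gene named *Ctrl* on the axis is chymotrypsin-like protease, not the group.

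The enzymes moved together from sample to sample. A set of 6, *Cela1*, *Cela2a*, *Cela3b*, *Cpa1*, *Pnlip* and *Ctrb1*, ordered the samples identically, with cKO replicate 1 above cKO replicate 3, Ctrl replicate 2, Ctrl replicate 1, cKO replicate 2 and Ctrl replicate 3. *Prss2*, *Try5* and *Cpb1* had the same order with Ctrl replicates 1 and 2 exchanged, and *Try4* in addition had its last 2 samples exchanged. The highest sample was 3.98-fold (*Prss2*) to 5.27-fold (*Cpa1*) above the lowest, with a median of 4.51-fold. The mean log2 level of the 10 enzymes had an SD over the 6 samples of 0.869, whereas the log2 ratio of an enzyme to the mean of the other 9 had an SD of 0.0816 (*Cela1*) to 0.35 (*Try4*). Most of the variation between islet samples was therefore in how much enzyme RNA there was in all, and less of it in the proportions of the enzymes.

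The tightest pair was *Cpa1* and *Ctrb1*, which lie on different chromosomes and whose log2 ratio had an SD of 0.0497 over the 6 samples. *Cela2a* with *Cela3b* followed at 0.0832, and *Pnlip* with *Ctrb1* at 0.0867. The ratio of *Pnlip* to *Ctrb1* was 0.246 to 0.287 in all 6 samples, and that of *Cela3b* to *Cela2a* was 0.374 to 0.436. Among the trypsinogens, *Try4* was 1.02 to 1.39 times *Prss2*, and *Try5* was 0.538 to 0.756 times *Prss2*. *Cpb1* kept closest to *Try4* and *Prss2*, with SDs of the log2 ratio of 0.123 and 0.129, although it shares no 50-base word with them. The loosest of the 45 pairs was *Try4* with *Pnlip*, at 0.542, and the median over pairs was 0.304.

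The proportions of the enzymes set Ctrl replicate 1 apart. *Ctrb1* made up 22.6% of the summed FPKM of the 10 in that sample and 30.1% to 33.9% in the other 5. *Try4* made up 22.2% there and 12% to 17.0% elsewhere, *Prss2* 17.0% and 11.8% to 13.5%, *Try5* 11.8% and 7.24% to 9.50%, and *Cpb1* 3.57% and 1.93% to 2.66%. *Pnlip* made up 5.94% there and 8.15% to 9.45% elsewhere, and *Cpa1* 3.13% and 4.13% to 4.81%. The ratio of *Try4* to *Ctrb1* was 0.983 in Ctrl replicate 1 and 0.355 to 0.564 in the other samples, and that of *Cpb1* to *Cpa1* was 1.14 and 0.409 to 0.643. Shares of a sum and ratios to the other enzymes are relative, so a rise of some brings a fall of others by construction. On the log2 scale, relative to the other 9 enzymes, Ctrl replicate 1 was above the mean of the other 5 samples by 0.71 for *Try4*, 0.66 for *Cpb1*, 0.59 for *Try5* and 0.53 for *Prss2*. It differed from that mean by -0.60 for *Pnlip*, -0.58 for *Cpa1*, -0.55 for *Ctrb1*, -0.36 for *Cela3b*, -0.28 for *Cela2a* and -0.11 for *Cela1*, of which *Cela1* alone lay within the range of the other 5. The same sample held the high leukocyte level, with *Lyz2*, a lysozyme of myeloid cells, at 539 FPKM against 15.6 to 56.0 FPKM elsewhere; the part of these cells in the proportions was not tested.

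**Figure D3:**
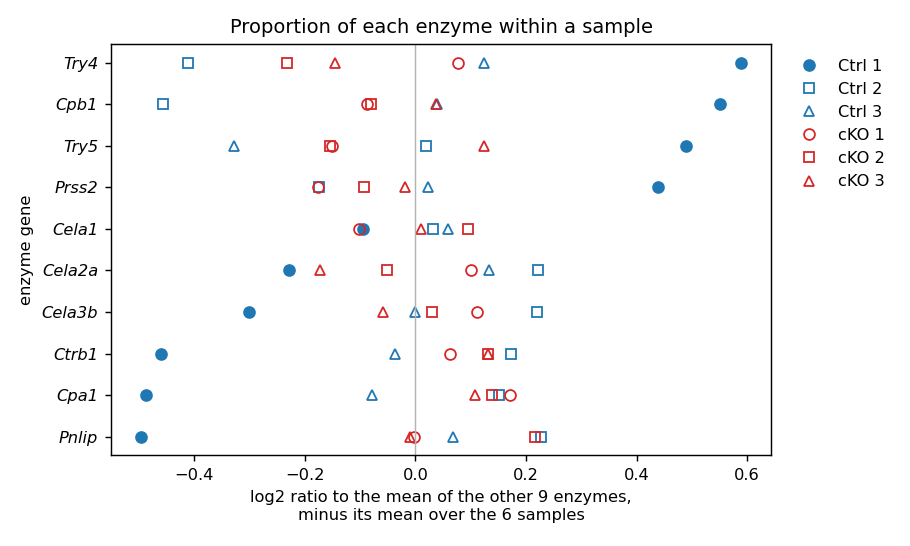
Log2 ratio of each enzyme to the mean of the other 9 in the same sample, minus its mean over the 6 samples; filled circles are Ctrl replicate 1, open blue symbols the other Ctrl samples and open red symbols the cKO samples. Ctrl replicate 1 lies to the right of all other samples for *Try4*, *Cpb1*, *Try5* and *Prss2* and to the left of them for *Cela2a*, *Cela3b*, *Ctrb1*, *Cpa1* and *Pnlip*.

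When the enzymes were split after these values were seen, into *Try4*, *Try5*, *Prss2* and *Cpb1* on one side and the other 6 on the other, the 21 pairs within a side had a median SD of the log2 ratio of 0.159 and the 24 pairs across them one of 0.434. Ctrl replicate 1 carries much of this split. Without it, the median over all 45 pairs was 0.173 and the highest 0.324, and the SD of the ratio to the other 9 enzymes was 0.0753 to 0.221. In the remaining 5 samples *Try4* still varied most, from 12% of the enzyme RNA in Ctrl replicate 2 to 17.0% in Ctrl replicate 3, and its share cannot be separated from that of *Try5* where reads match both.

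Other products of the acinar cell were described from a list of 28 genes, of which 27 had a mean of at least 1 FPKM. The highest was *Clps*, which encodes colipase, the cofactor of pancreatic lipase, at 1417, 1593 and 648 FPKM in the Ctrl and 2694, 779.5 and 2243 FPKM in the cKO samples. *Cel*, carboxyl ester lipase, was at 528, 1129 and 398 FPKM and at 1802, 513 and 1428 FPKM. *Rnase1*, pancreatic ribonuclease, was at 932, 891 and 371 FPKM and at 1375, 413 and 1503 FPKM. *Sycn*, a protein of the zymogen granule membrane, was at 735, 666 and 253 FPKM and at 1044, 336 and 1001 FPKM. The first places of the same 2 cKO samples and the low levels of Ctrl replicate 3 were shared by these 4 genes. *Ctrl*, the gene of a chymotrypsin-like protease that shares its name with the control group, was at 639.9, 849 and 356 FPKM in the Ctrl and 1696, 442 and 1261 FPKM in the cKO samples. *Pnliprp1*, a relative of pancreatic lipase, was at 504, 865 and 295 FPKM and at 1158, 348 and 1138 FPKM. *Zg16*, a lectin of the zymogen granule, was at 203, 384 and 119.8 FPKM and at 586, 156 and 470.0 FPKM. *Ctrl* and *Zg16* had the sample order of the 6 enzymes led by *Ctrb1*, as did *Clps*, *Cel* and *Pnliprp1*. *Amy2b*, an amylase gene, was at 253, 240.0 and 135 FPKM in the Ctrl and 741, 121 and 916 FPKM in the cKO samples. *Klk1*, a kallikrein, was at 368, 300.01 and 108 FPKM and at 404, 118 and 437 FPKM. With *Amy2a1*, described below, these are the 10 highest of the list, and their log2 fold changes were 0.27 (*Klk1*) to 1.15 (*Amy2a1*).

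A mean higher in cKO islets was found for 27 of the 28 genes, with a median log2 fold change of 0.61, and none passed the limma test at an adjusted p under 0.05, the range being 0.518 to 0.994. An unadjusted p under 0.05 with a higher level in cKO islets was found for 2 of them, against the 4.33% of all genes tested. *Amy2a1*, a pancreatic amylase gene, was at 242, 223 and 99.5 FPKM in the Ctrl and 364, 277 and 586 FPKM in the cKO samples (log2 fold change 1.15, SE 0.414, adjusted p = 0.619), without overlap. *Ctrc*, chymotrypsin C, was at 135, 169 and 115 FPKM and at 314, 179.7 and 309 FPKM (log2 fold change 0.90, SE 0.256, adjusted p = 0.518), also without overlap. Of the 28 products, 3 were without overlap, against 13.1% of all genes tested. The third was *Cela3a*, near the floor with 2, 2 and 0 reads in the Ctrl and 14, 3 and 3 in the cKO samples. *Amy2a1* and *Ctrc* belong to genes whose reads are hard to assign, *Amy2a1* as 1 of several close amylase copies and *Ctrc* through its overlap with *Cela2a*. Without cKO replicate 2, 15 of the 28 had an unadjusted p under 0.05 with a higher level in cKO islets, against 3.5% of all genes in that fit. Without Ctrl replicate 3, cKO replicate 1 or cKO replicate 3, 1 had, *Ctrc* each time, against 3.66%, 3.94% and 3.51% of all genes.

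Some of the 27 measured products also stood apart in Ctrl replicate 1. Relative to the mean log2 level of the 10 enzymes, 8 were above all other samples there, 7 were below all others, and 12 were within their range. Among those above were *Klk1* by 0.80, *Serpini2* by 0.70, *Sycn* by 0.51 and *Rnase1* by 0.40 over the mean of the other 5 samples. Among those below were *Dmbt1* at -1.29, *Cel* at -0.63, *Tff2* at -0.56 and *Pla2g1b* at -0.51. *Clps*, the colipase gene, was above by 0.19 against the mean of the 10, whereas *Pnlip* was at -0.60 against the other 9 enzymes. The counts were made for Ctrl replicate 1 alone, and how unusual they are beside other samples or other genes was not tested.

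The genes most like the enzymes were ranked among 13353 others with a mean of at least 1 FPKM, by the SD over the 6 samples of their log2 ratio to the mean of the 10. Among the nearest 10 were *Ctrl* at an SD of 0.0908, *Clps* at 0.0920, *Pnliprp1* at 0.158, *2210010C04Rik* at 0.161, *Zg16* at 0.182, *Pnliprp2* at 0.185, *Cuzd1* at 0.203, *Rnase1* at 0.214 and *Aqp12* at 0.217. Of the 10, 8 were in the list of acinar products; *2210010C04Rik* lies at the edge of the trypsinogen cluster, and *Aqp12* encodes an aquaporin of acinar cells. Over all the other genes the median SD was 0.903, and 22 genes were at or below the highest value of an enzyme, 0.35, 15 of them in the fixed acinar lists.

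Within the trypsinogen cluster, however, neighboring genes did not keep to the same proportions. The cluster was described gene by gene after its values were seen. Relative to *Prss2* in the same sample, *Try4* was at 102% to 139%, *Try5* at 53.8% to 75.6%, *2210010C04Rik* at 34.1% to 43.3% and *Try10* at 0.473% to 0.857%. Of the 50-base words of *Try10*, 40.8% occurred in other genes, *Try4* among them, so the level of *Try10* is uncertain. *Prss3* was at 150.4, 35.4 and 65.4 FPKM in the Ctrl and 695, 12.6 and 359.9 FPKM in the cKO samples, a 55.2-fold range against 3.98-fold for *Prss2*. Its level was 4.48%, 1.2% and 5.03% of that of *Prss2* in Ctrl islets and reached 13.4%, 0.875% and 7.70% of it in cKO islets. *Gm5771*, a predicted trypsinogen gene, went from 15 reads in cKO replicate 2 to 6698 in cKO replicate 1, or from 0.0752% to 9.21% of *Prss2*. *Gm10334* had 23, 12 and 13 reads in the Ctrl and 586, 1 and 170 in the cKO samples, and *Prss1* had 19, 9 and 15 and 534, 1 and 89. These 4 genes ordered the samples alike, with cKO replicates 1 and 3 first, Ctrl replicates 1, 3 and 2 next and cKO replicate 2 last. In cKO replicate 2 all 4 were at their lowest, although 9 of the 10 enzymes were lowest in Ctrl replicate 3. None passed the genotype test (limma adjusted p of 0.798 to 0.918). Their transcripts share 54.9% to 66.1% of their 50-base words with other genes, mostly with one another, so the split between the 4 is uncertain. *Try4* and *Try5* also share words with *Prss1*, and *Try5* with *Gm5771*. The split of reads from the far higher *Try4* and *Try5* is therefore uncertain too.

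**Figure D4:**
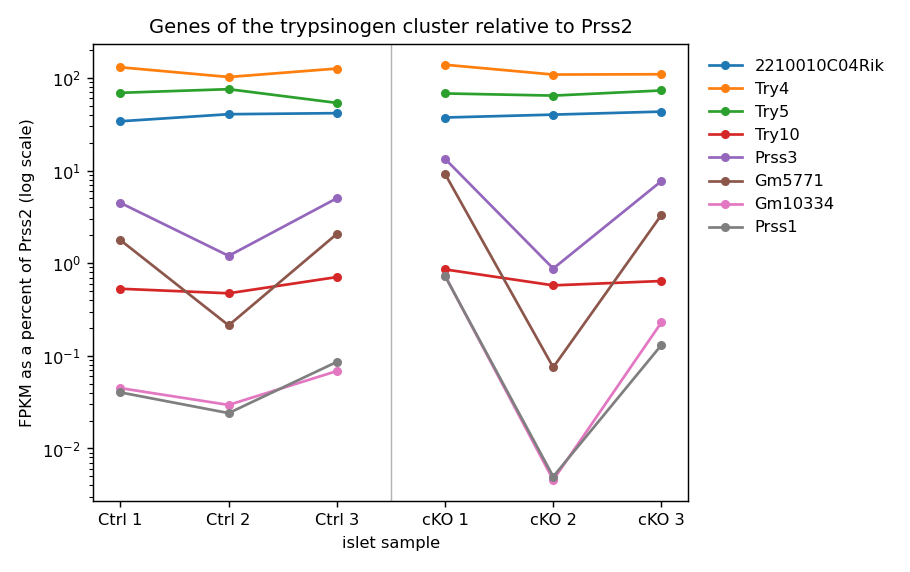
FPKM of 8 genes of the trypsinogen cluster on chromosome 6 as a percent of *Prss2* in the same sample, on a log axis, in the 3 Ctrl and 3 cKO samples; lines only link the points of a gene within a genotype. *Try4*, *Try5*, *2210010C04Rik* and *Try10* stay nearly level, while *Prss3*, *Gm5771*, *Gm10334* and *Prss1* are highest in cKO replicate 1 and lowest in cKO replicate 2.

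Among the transcription factors of the acinar cell, *Ptf1a* and *Rbpjl* were detected at low levels and *Bhlha15* at higher ones. *Ptf1a*, the acinar factor of the adult pancreas, was at 0.27, 0.59 and 0.080 FPKM in the Ctrl and 0.72, 0.61 and 0.48 FPKM in the cKO samples, from 2 to 19 reads. *Rbpjl*, its acinar partner, was at 0.82, 1.45 and 0.46 FPKM and at 3.41, 0.68 and 1.13 FPKM. *Bhlha15*, a factor of secretory cells, was at 26.0, 19.0 and 10.8 FPKM in the Ctrl and 35.2, 34.8 and 18.4 FPKM in the cKO samples; cKO replicate 2 was above and cKO replicate 3 below Ctrl replicates 1 and 2, unlike in the enzymes. *Cckar*, the receptor for the hormone that triggers enzyme secretion, was at 1.34, 3.63 and 0.91 FPKM and at 5.12, 1.62 and 4.17 FPKM. *Cckar* was thus highest in the 2 samples highest in enzymes and lowest in the sample lowest in them. Of 8 factors and secretory regulators, all had a higher mean in cKO islets and none passed the test. *Rab3d*, a small GTPase of secretory granules, was at 34.9, 36.4 and 34.0 FPKM in the Ctrl and 55.0, 43.1 and 54.0 FPKM in the cKO samples, without overlap (log2 fold change 0.51, limma adjusted p = 0.405). Of the 8, 2 were without overlap, against 13.1% of all genes tested.

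None of the marker lists of other cell types ordered the 6 samples as the enzymes did. Summed over marker lists, duct genes were at 89.5 to 131 FPKM in Ctrl and 97.6 to 115 FPKM in cKO samples, and endothelial genes at 112 to 128 and 135 to 170.0 FPKM. Stromal genes were at 11.8 to 20.4 FPKM in Ctrl and at 15.6 to 46.0 FPKM in cKO samples; the lowest of the cKO values was in replicate 1, the sample with the most enzyme RNA, and the highest in replicate 2, the cKO sample with the least. β cell genes were at 235964 to 276386 FPKM in Ctrl and 195405 to 217645 FPKM in cKO samples, and genes of the other endocrine cells at 29392 to 36583 and 27612 to 38475 FPKM. The β cell sum was mostly *Ins2*, *Ins1* and *Iapp*, with means of 145033, 68370 and 17283 FPKM over all samples. Of the 10 β cell genes, 8 had a lower and 2 a higher mean in cKO islets. No gene of these lists or of the leukocyte list passed the limma test. An unadjusted p under 0.05 was found for 2 of 10 duct, 2 of 8 endothelial and 2 of 8 stromal genes. The same was found for 1 of 8 leukocyte, 1 of 10 β cell and 2 of 8 other endocrine genes. Over all genes tested the share was 7.4%. *Ins2* was at 168013 ± 12091 FPKM (SD, n = 3) in Ctrl and 122054 ± 12099 FPKM in cKO islets, without overlap. Its SE in the fit was nevertheless 2.87 on the log2 scale, and that of *Ins1* was 1.76. *Iapp* was also without overlap, with an SE of 0.719. With SEs this wide, a missing call cannot decide whether these highest genes differed. Of the 10 β cell genes, 3 were without overlap, against 13.1% of all genes tested. Besides *Ins2* and *Iapp* this was *G6pc2*, which was higher in cKO islets, with means of 1117 FPKM in Ctrl and 1442 FPKM in cKO islets. The duct genes differed among themselves: the keratin *Krt19* was at 9.98, 2.40 and 10.5 FPKM in the Ctrl and 4.76, 2.73 and 3.58 FPKM in the cKO samples, lowest in Ctrl replicate 2. *Muc1*, a mucin of duct and other epithelia, was at 2.44, 2.90 and 1.23 FPKM and at 3.86, 2.13 and 3.89 FPKM, which is the order of most enzymes with the first 2 samples exchanged. *Cftr*, the chloride channel of duct cells, was at 1.31, 0.499 and 0 FPKM and at 3.74, 1.66 and 2.58 FPKM, without overlap (limma adjusted p = 0.518). The keratin *Krt7* went the other way, also without overlap, with a mean of 31.3 FPKM in Ctrl and 25.3 FPKM in cKO islets. Its log2 fold change was -0.296 (limma adjusted p = 0.5897). *Cftr* and *Krt7* were the duct genes with an unadjusted p under 0.05. Of the 10 duct genes, 3 were without overlap, against 13.1% of all genes tested. *Krt19*, *Muc1*, *Cftr* and *Krt7* were chosen after their values were seen. The part of these cell types in the enzyme levels was not tested.

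**Figure D5:**
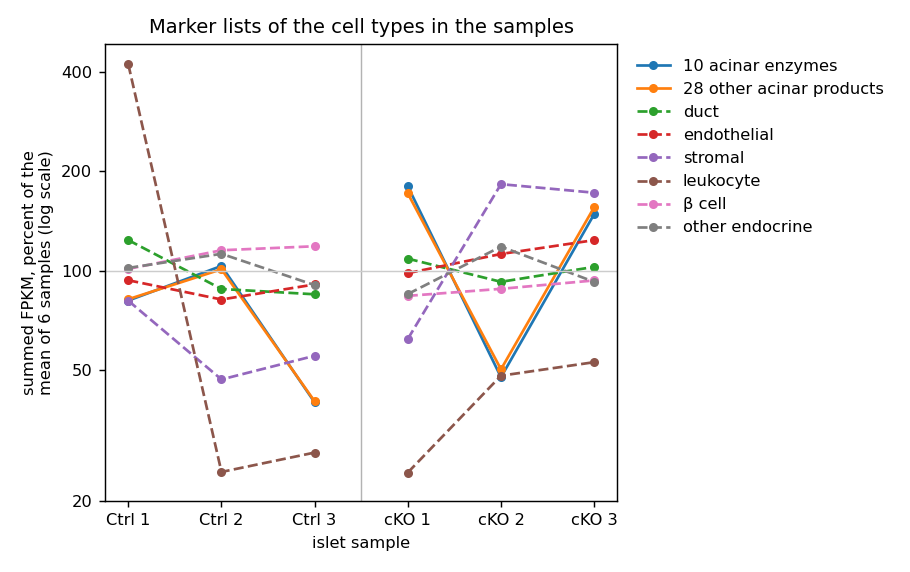
Summed FPKM of each marker list in each sample as a percent of its mean over the 6 samples, on a log axis; lines only link the points of a list within a genotype. The 10 enzymes and the 28 other acinar products run together, from 39.8% in Ctrl replicate 3 to 180.1% in cKO replicate 1 for the enzymes, and the leukocyte list reaches 423% in Ctrl replicate 1.

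Enteropeptidase, the intestinal activator of trypsinogen, was listed at 0 in all 6 samples (*Tmprss15*). *Spink1*, the trypsin inhibitor packed with the zymogens, was at 108, 71.1 and 46.7 FPKM in the Ctrl and 154, 56.8 and 149.6 FPKM in the cKO samples, with the order of *Prss2*, *Try5* and *Cpb1*. *Ctsb*, a lysosomal protease that can cleave trypsinogen and is expressed in most cells, was at 44.9, 37.9 and 35.1 FPKM in the Ctrl and 35.8, 42.8 and 42.7 FPKM in the cKO samples, with another order of the samples.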

How the data were processed

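Total RNA was extracted with TRIzol from 3 islet samples of Ctrl and 3 of cKO mice, and libraries were made with a SMARTER mRNA kit per the labels. The authors deposited an FPKM value for each gene in each sample, with coordinates on GRCm38 (mm10) per the submitters' processing notes. The aligner, the counting tool, the read length and the annotation release are not given in the sources used here. In every sample, 100% of the values of FPKM multiplied by gene length were whole multiples of 1 step within 0.05 reads, so reads were read back from them, for depth and for 1 alternative. Of the 55060 identifiers, 528 were outside the Ensembl annotation.

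log2(FPKM + 1) was compared between genotypes by the moderated, trended and two-sided test of limma 3.58.1 (R 4.3.3) over 21211 genes averaging 0.1 FPKM or more, with Benjamini-Hochberg adjustment over all of them. Fold changes of low genes come out too small on this scale. Ratios between genes used log2(FPKM + 0.1). The members and gene lists were chosen with earlier results of these data known. The genes named are the 10 enzymes, the 10 highest other acinar products, those with a mean FPKM of at least 1 as counts and examples, the 10 nearest in pattern, and markers needed to describe the cell types; the genes of the trypsinogen cluster, *Tmprss15*, *Spink1* and *Ctsb* were named after their values were seen. A gene that falls under this rule is not reported here. Shared 50-base words were counted over GENCODE transcripts of GRCm38. Figures were drawn in matplotlib 3.10.9 (Python 3.11.15), and the code was tested on simulated data.

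There were 15 alternatives of the fit: pseudocount, filter, scaling, trend, voom, replicate block and each sample left out. Of the scalings, that by median of ratios divided every sample by the same 1.00368, so its result was fixed in advance. Replicate numbers are from the labels, and samples with the same number are different mice. Whether a sample pools several mice is not given in the sources used here. The p-values set the difference between the genotypes against the spread between these samples, moderated over all genes tested.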

Additional observations from a re-analysis of the deposited data

How the results depend on the processing

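In all 15 alternatives of the fit, 0 of the 10 enzymes and 0 of the 28 other acinar products had an adjusted p under 0.05. The 15 include the scaling by median of ratios, which could not change the fold changes. Of the 150 log2 fold changes of single enzymes, 149 kept their sign and their side of the threshold, with adjusted p of 0.610 to 0.997; that of *Try5* was -0.024 without Ctrl replicate 3 and 0.21 to 1.18 with any other sample left out. The mean log2 difference of the enzymes was 0.79 as TPM and 0.75 when *Ins1*, *Ins2* and the acinar genes were left out of the total, and 0.26 to 1.24 with 1 sample left out. TPM moved the median of all genes from -0.01 to 0.08. At an unadjusted p under 0.05, leaving out 1 sample gave 0 to 5 enzymes, with the 5 without cKO replicate 2, and 1 to 15 other acinar products. With replicate number as a block, 1 other acinar product was at that threshold, in place of 2, and no enzyme. The same-numbered samples' deviations correlated at -0.171, -0.0219 and -0.0652, so no sign of pairing was seen. With 3 samples a group, these values cannot settle whether the samples were paired. Over all genes, leaving out Ctrl replicate 1 gave 14 calls after adjustment and 2373 unadjusted ones, in place of 0 and 1570. The ratio of the summed FPKM, cKO to Ctrl, was 1.84 as TPM and 1.31 to 2.20 with 1 sample left out, alternatives chosen after seeing the data. The median SD over pairs of enzymes was 0.304 with a pseudocount of 1 and 0.173 to 0.339 with 1 sample left out. With 3 samples a group, the spread between samples and not depth limits the comparison of the enzymes. For *Ptf1a*, *Prss1* and *Gm10334*, which had under 3 reads in 1 sample each, depth is a limit too. The same holds for *Cela3a*, with 2, 2 and 0 reads in the Ctrl samples.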

Other observations

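The other islet hormones were set beside the enzymes. *Ppy*, the pancreatic polypeptide gene, was at 17895, 17271 and 6846 FPKM in the Ctrl and at 13903, 14340 and 11221 FPKM in the cKO samples. Its lowest level was in Ctrl replicate 3, the sample lowest in enzyme RNA, but its highest were in Ctrl replicates 1 and 2 and not in the cKO samples highest in enzymes. *Gcg*, the glucagon gene of α cells, was highest in cKO replicate 2 and lowest in cKO replicate 1, at 15396 and 8219 FPKM, the cKO samples with the least and the most enzyme RNA. *Sst*, the somatostatin gene of δ cells, was at 4166, 6821 and 6196 FPKM in the Ctrl and at 4949, 7815 and 6046 FPKM in the cKO samples.

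The amylase genes on chromosome 3 differed among themselves more than the 10 enzymes did. *Amy2b* had a 7.57-fold range over the 6 samples and *Amy2a4* a 9.49-fold one, whereas *Amy2a3* had one of 2.61-fold and was the only product of the 28 with a lower mean in cKO islets, at 63.1 ± 25.9 FPKM (SD, n = 3) against 65.4 ± 28.3 in Ctrl islets (limma adjusted p = 0.994). The split of reads among these copies is uncertain.

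The mucin-like gene *Dmbt1* was at 22.2, 106 and 32.0 FPKM in the Ctrl and at 124, 23.8 and 77.3 FPKM in the cKO samples. It was the only one of the 27 measured acinar products with its lowest level in Ctrl replicate 1.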
